A study of Mus musculus with 11 samples.

Results

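Malat1, Meg3, Neat1, Miat, Rian, Mirg, Snhg11 and Snhg14 are long noncoding RNAs of the brain, and their levels were read from RNA sequencing of mPFC CRF1+ neurons. The genes were chosen by name, by mapping 8 symbols to the gene identifiers of the count files, and all 8 were found among the 53465 genes and were among the 17093 that passed the filter on low counts. The cells were medial prefrontal cortex neurons that express the corticotropin releasing factor receptor 1, sorted as live GFP+ cells from male CRF1:GFP mice, adults over 10 weeks of age in which GFP reports the receptor gene. Each library came from 1 mouse. The 6 naïve mice (labelled control) received pyrazole, an inhibitor of alcohol dehydrogenase, and breathed air in the vapor chambers, whereas the 5 withdrawn mice (labelled ethanol) received ethanol with pyrazole and breathed ethanol vapor intermittently for 5 to 6 weeks, followed by 5 to 8 days of forced abstinence. A further label of 3 withdrawn mice (numbers 3, 4 and 5) reads control. In the design text the group sizes are reversed, at 5 control and 6 ethanol mice, so the main results on Neat1 are also given without these 3 mice.

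As background, transcripts of this kind are spliced and polyadenylated like mRNA or retained whole in the nucleus, and several organize nuclear bodies. Malat1 sits in nuclear speckles, which store splicing factors, and Neat1 is the scaffold of paraspeckles, bodies that hold back certain proteins and RNAs. Meg3, Rian and Mirg are expressed from the maternal chromosome of the imprinted Dlk1-Dio3 locus, and Snhg14 is expressed from the paternal chromosome of the Prader-Willi and Angelman locus.

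The 3′ ends show how unlike the transcripts of this group are, and they matter because the labels give the measured molecule as polyA RNA. The short Neat1 transcript ends behind the polyadenylation signal AATAAA (capitals in the line Neat1-202). The long Neat1 transcript and Malat1 are known to be cut by RNase P instead, and both carry a stretch of 11 bases (capitals in the lines Neat1-201 and Malat1-201) in an A-rich part of the genome sequence. The lines give the last 40 bases of each Neat1 transcript and a window of 40 bases around the longest run of A in Malat1, on GRCm38, minus strand, at chr19:5842307-5842346, chr19:5824708-5824747 and chr19:5795974-5796013.
Neat1-202: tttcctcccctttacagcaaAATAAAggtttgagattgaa
Neat1-201: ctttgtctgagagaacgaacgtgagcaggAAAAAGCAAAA
Malat1-201: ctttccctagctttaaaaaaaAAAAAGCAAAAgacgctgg
The signal AATAAA, read on the transcript strand only, lies in the last 40 bases of 25.8% of the 141704 annotated transcripts. It does so in 1 of 4 transcripts of Neat1, 3 of 4 of Malat1, 7 of 12 of Mirg and 0 of 6 of Miat. For Meg3 it is 4 of 11, for Rian 3 of 20, for Snhg11 2 of 5 and for Snhg14 3 of 15. The run of A shown for Malat1-201 ends 298 bases before the annotated transcript end, and that end carries the signal. The short Neat1 transcript measures 3004 bases and the long one 20771 bases, and the gene counts do not separate them.

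The members spanned a wide range of abundance. By mean CPM (counts scaled to TMM-normalized library sizes), Snhg11, a host gene of small nucleolar RNAs, ranked 6 among all genes, Meg3 ranked 14 and Malat1 ranked 85. Miat ranked 1756, Rian 3508, Neat1 4775, Snhg14 4844 and Mirg 9271. Because long transcripts collect more reads, levels are compared between genes only per kilobase of exon (RPKM). On that scale Snhg11 was highest (mean over the 11 mice 354), followed by Malat1 (136), Meg3 (114), Miat (13.8), Rian (3.90), Neat1 (2.44), Mirg (1.96) and Snhg14 (1.91). Per kilobase the ranks among all genes were 71 for Snhg11, 313 for Malat1 and 402 for Meg3, whereas Miat ranked 3916 and the other 4 members from 8654 to 11600. Snhg11 exceeded Malat1 in 11 of 11 mice and Miat exceeded Rian in 11 of 11. Malat1 exceeded Meg3 in 9 of 11 mice, and at the low end the order was not stable, with Neat1 above Mirg in 4 of 11 mice and Mirg above Snhg14 in 6 of 11. The place of Neat1 differed between groups, with mean RPKM of 0.636 in naïve and 4.60 in withdrawn mice. The naïve mean was the lowest of the members, and the withdrawn mean exceeded that of Rian (3.56). Per kilobase values use all annotated exons of a gene joined, which can exceed its longest transcript. For Meg3 these lengths are 18089 and 14548 bases, and for Snhg14 26093 and 6861. The order of Malat1 and Meg3 depends on that choice. The annotation used here classes Snhg11 as protein coding and the other members as noncoding.

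The members together held 0.651% ± 0.115 of gene counts in naïve mice (SD, n = 6) and 0.608% ± 0.0474 in withdrawn mice (SD, n = 5), with ranges of 0.498% to 0.762% and 0.533% to 0.649%. The ranges overlap, and all 5 withdrawn values lie inside the naïve range. Snhg11 and Meg3 supplied most of that share, 82.4% ± 3.05 of the members' counts in naïve mice and 76.8% ± 4.32 in withdrawn mice (SD). Gene counts per mouse ranged from 7351567 to 22244869, so that a count of 3 corresponds to 0.135 to 0.408 CPM. The precision of the common members is therefore not limited by counting, and such limits leave out the error of cDNA amplification.

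Withdrawn and naïve mice were compared to ask which members change after withdrawal from chronic ethanol. By edgeR's quasi-likelihood test, with genes called where the adjusted p did not exceed 0.05 and the log2 fold change passed 0.6 in size, 0 of the 8 members were called, against 0.00585% of all genes tested, which is 1 gene (Ptgdr, a prostaglandin receptor, named after its values were seen). At an unadjusted p under 0.05, Neat1 was the sole member, higher in withdrawn mice, where 5.00% of genes passed in that direction. Of the members, 2 had positive and 6 negative log2 fold changes, with a median of -0.15 beside 0.02 over all genes tested. DESeq2's Wald test called 1 member, Neat1, where it called 1.57% of genes in that direction. In bulk samples, fewer cells of a type and less RNA per cell cannot be told apart.

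**Figure D1:**
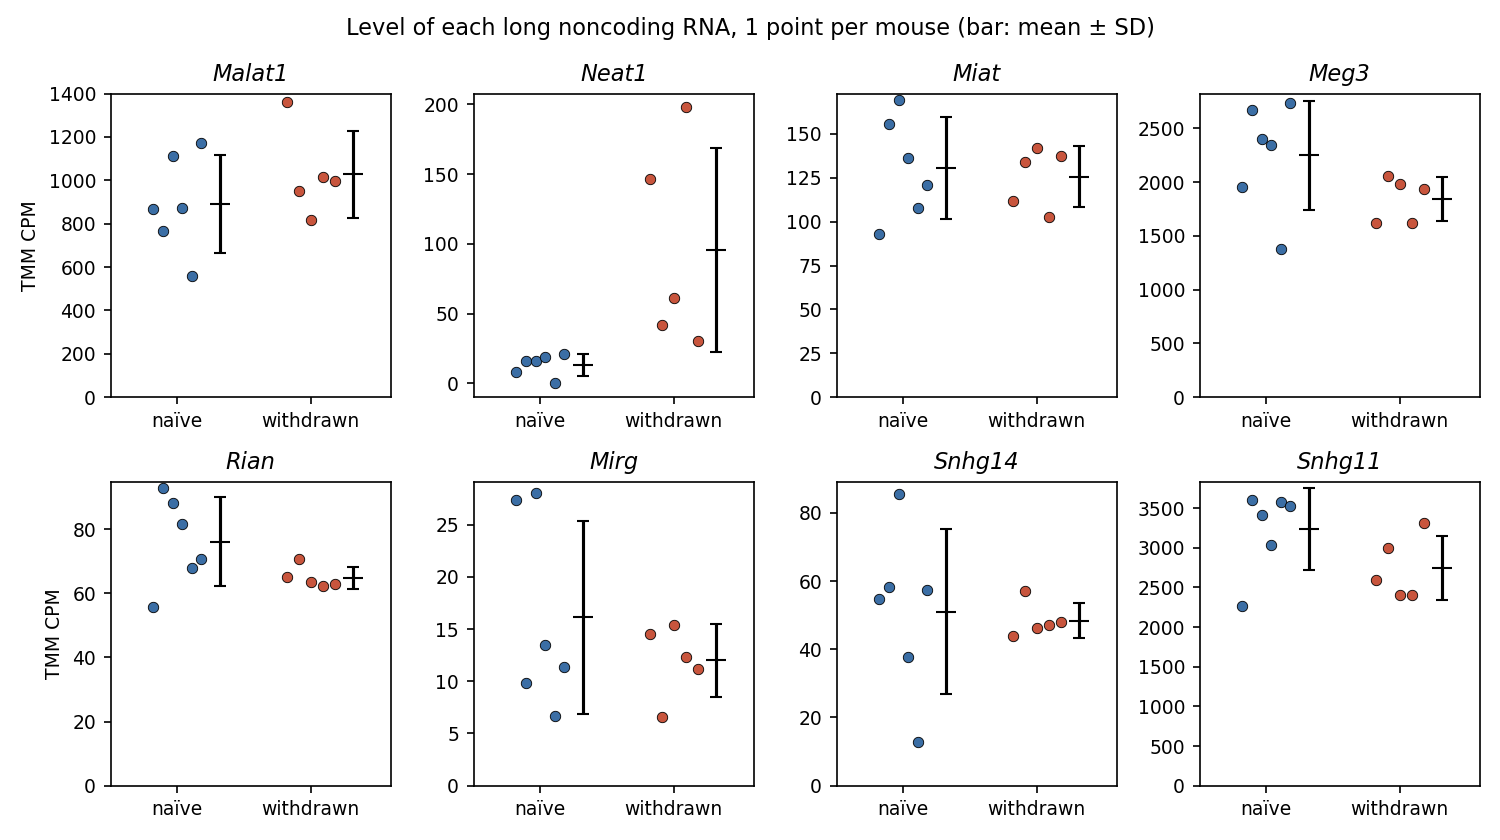
CPM of each member in each mouse (points), with the mean ± SD of the group beside them (bar), for 6 naïve (blue) and 5 withdrawn (red) mice. All 5 withdrawn Neat1 values lie above all 6 naïve values, and the groups overlap for the other 7 members.

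Neat1, the paraspeckle scaffold, lies at chr19:5824708-5845478 on the minus strand. Its CPM was 8.06, 16.1, 15.8, 18.6, 0 and 20.7 in naïve mice 1 to 6. In withdrawn mice 1 to 5 it was 147, 42.1, 61.0, 198 and 30.1. Every withdrawn mouse lay above every naïve mouse, a pattern shown by 0.690% of genes tested, and the lowest withdrawn value was 1.45 times the highest naïve value. Group means were 13.2 ± 7.77 (SD, n = 6) and 95.5 ± 73.1 (SD, n = 5), a ratio of 7.23, and withdrawn mouse 4 supplied 41.4% of the summed CPM of its group. By edgeR the log2 fold change was 2.85 ± 0.79 (SE), adjusted p = 0.266, whereas by DESeq2 it was 2.91 ± 0.84 (SE), adjusted p = 0.0393. Neat1 thus passed the threshold by DESeq2 and not by edgeR. The DESeq2 call was lost without the 3 withdrawn mice that carry a conflicting label (2.88 ± 1.19 (SE), DESeq2 adjusted p = 0.287) and in 7 of 11 fits that left out a single mouse, where the DESeq2 adjusted p reached 0.244 without withdrawn mouse 4. In naïve mouse 5 no read was counted for Neat1, in a library of 15693627 gene counts, which allows up to 0.191 CPM before TMM scaling. Without that mouse the edgeR value was 2.59 ± 0.49 (SE), adjusted p = 0.0725. Without the 3 withdrawn mice that carry a conflicting label the edgeR value was 2.80 ± 1.00 (SE), adjusted p = 0.756.

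Markers of fibroblasts were higher in 4 of the 5 withdrawn libraries than in any naïve library. Their summed CPM over 10 genes ranged from 0.0677 to 95.0 in naïve mice and was 1739, 29.4, 1025, 1431 and 362 in withdrawn mice 1 to 5. No marker of the list was at 0 in all mice. All 8 tested markers had positive log2 fold changes, 6 of them at an unadjusted p under 0.05 by edgeR and 0 of them called, while DESeq2 called 3. Without the 3 mice with a conflicting label, 7 of 10 tested fibroblast markers were positive, 3 had an unadjusted p under 0.05, and 0 were called by edgeR or DESeq2. The leading marker Fn1, fibronectin, had a mean of 35.1 CPM in naïve and 278 CPM in withdrawn mice. Its log2 fold change was 2.99 ± 0.97 (SE) (edgeR adjusted p = 0.392). Col1a2, a collagen chain named after its values were seen, had means of 11.2 and 292 CPM. Its log2 fold change was 4.71 ± 1.33 (SE) (edgeR adjusted p = 0.274). Withdrawn mouse 2, in which the fibroblast sum of 29.4 was lower than in 5 of 6 naïve mice, had 42.1 CPM of Neat1, above all naïve mice. In the other 4 withdrawn mice both were high. Naïve mouse 5, with a Neat1 count of 0, had the lowest fibroblast sum of all mice, 0.0677 CPM. Its sums of endothelial (3.18), pericyte and smooth muscle (0.813) and oligodendrocyte precursor markers (0) were also the lowest. The part of fibroblast RNA in the Neat1 difference was not tested.

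**Figure D2:**
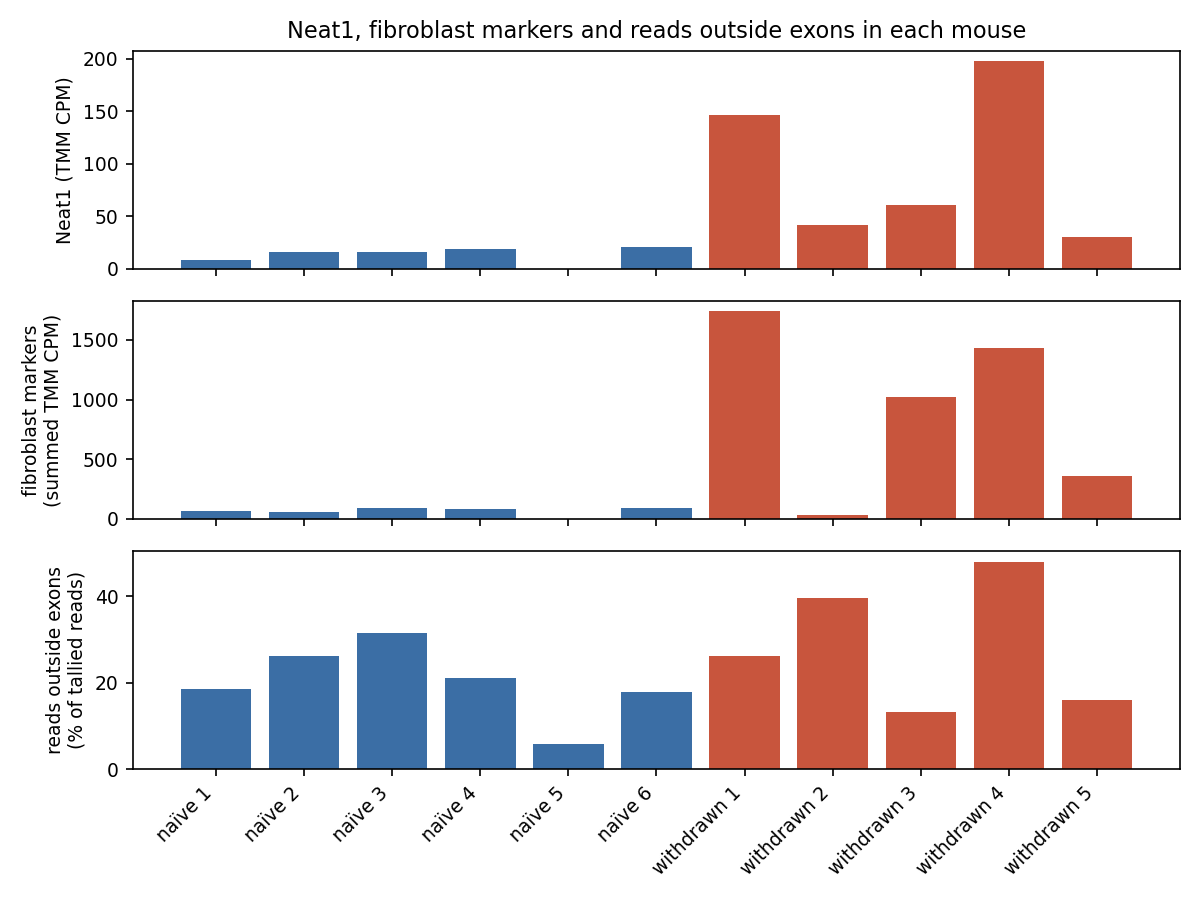
Bars give, for each of the 11 mice, Neat1 in CPM (top), the summed CPM of 10 fibroblast markers (middle) and the percentage of tallied reads outside annotated exons (bottom), in blue for naïve and red for withdrawn mice. Neat1 and the fibroblast sum are both highest in withdrawn mice 1 and 4, and withdrawn mouse 2 has a low fibroblast sum with 39.6% of reads outside exons.

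The identity of the sorted cells was checked with Crhr1, the receptor gene that the reporter marks, at 92.7 ± 21.5 CPM in naïve and 89.3 ± 33.6 CPM in withdrawn mice (SD). Slc17a7, the vesicular glutamate transporter of cortical excitatory neurons, stood at 1435 ± 346 and 1362 ± 447 CPM (SD), and Rbfox3, a neuronal splicing factor, at 262 and 247 CPM. Gad2, an enzyme of GABA synthesis, had means of 39.9 and 57.5 CPM. Summed neuron markers ranged from 10775 to 12942 CPM in naïve and from 6662 to 11123 CPM in withdrawn mice, lowest in withdrawn mouse 4, the mouse with the most Neat1. Of the 10 neuron markers, 9 had negative log2 fold changes (median -0.20) and 0 were called by edgeR. At an unadjusted p under 0.05, 2 of the 10 were lower, as were 380 of all 17093 genes tested. Among the leading markers of other cell types, Mbp of oligodendrocytes had means of 134 and 103 CPM, Slc1a2 of astrocytes 239 and 183, Ly6c1 of endothelium 114 and 53.8, Pdgfra of oligodendrocyte precursors 2.76 and 6.89, Rgs5 of pericytes 20.8 and 7.66, and Sst of interneurons 247 and 6.53 CPM in naïve and withdrawn mice. Of the tested markers, 1 of 7 of astrocytes and 1 of 6 of oligodendrocytes had positive log2 fold changes. So had 2 of 8 of endothelium, 3 of 6 of pericytes and smooth muscle, 2 of 4 of microglia and 4 of 4 of oligodendrocyte precursors. The astrocyte marker was Gja1, named after its values were seen, with means of 15.3 and 187 CPM. Its log2 fold change was 3.61 ± 0.96 (SE) (edgeR adjusted p = 0.250). Sst ranged from 0.0677 to 699 CPM in naïve mice (SD 293). Of the 8 interneuron markers, 6 had positive log2 fold changes, with a median of 0.36 and 0 called, among them Gad1 with means of 87.7 and 155 CPM. Summed microglia markers ranged from 8.81 to 26.2 CPM in naïve mice and were 41.3, 8.28, 37.8, 45.1 and 29.1 CPM in withdrawn mice 1 to 5, so that the 4 withdrawn libraries with high fibroblast sums also lay above all naïve libraries here. Summed oligodendrocyte precursor markers reached 20.2 CPM in naïve and 41.1 CPM in withdrawn mice. Pdgfra is on this list and on the fibroblast list, so its reads count in both sums. The ranges of all these sums overlapped between groups, and their part in the members' values was not tested.

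Malat1, the neighbour of Neat1 at chr19:5795690-5802672, lies 22035 bases from it on the same strand. Its CPM had a lowest, median and highest value of 557, 868 and 1170.3 in naïve mice. In withdrawn mice 1 to 5 it was 1360, 950.0, 819, 1015 and 997. Withdrawn mouse 1 lay above all naïve mice and the other 4 lay inside the naïve range. The log2 fold change was 0.21 ± 0.19 (SE) (edgeR adjusted p = 0.892). The ratio of Neat1 to Malat1, computed as log2 of CPM + 0.5, was -6.62 ± 1.77 in naïve and -3.76 ± 1.05 in withdrawn mice (SD). It ranged from -10.12 to -5.51 and from -5.02 to -2.36, without overlap, a difference of 2.86 (two-sided exact permutation test, p = 0.00216, adjusted p over 4 ratios = 0.00866). Without naïve mouse 5, whose ratio rests on a Neat1 count of 0, the difference was 2.15 (exact permutation p = 0.00794). Without the 3 mice with a conflicting label, 6 naïve against 2 withdrawn mice, the difference was 2.77 (exact permutation p = 0.107). The ratio uses the same Neat1 values as the comparison above and is no separate evidence of its rise.

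Of the genes within 100000 bases of the Malat1 and Neat1 pair, 2 are named here after their values were seen. Frmd8, next to Neat1, had a log2 fold change of 0.71 ± 0.74 (SE). Ltbp3, which encodes a binding protein of latent TGF-beta, had means of 6.32 and 41.8 CPM and a log2 fold change of 2.72 ± 0.76 (SE), with an edgeR adjusted p of 0.265.

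Proteins of the bodies that these RNAs occupy showed no call in edgeR, which called 0.00585% of all genes tested. At that share a short list would seldom hold a call, here and in the lists below. All 16 nuclear speckle proteins were tested, 10 higher and 6 lower, 0 at an unadjusted p under 0.05, with a median log2 fold change of 0.06. The smallest p belonged to Srsf1 (0.31 ± 0.19), Srsf7 (-0.29 ± 0.18), Rbm25 (-0.22 ± 0.14) and Srrm1 (0.28 ± 0.20), all splicing regulators or their partners (log2 fold change ± SE). All 16 paraspeckle proteins were tested as well, 8 higher and 8 lower, with a median of 0.00 and 0 at an unadjusted p under 0.05. Pspc1, a core paraspeckle protein, had -0.33 ± 0.23, Hnrnph3 0.23 ± 0.21, Cpsf6 0.19 ± 0.18 and Cpsf7 -0.27 ± 0.30 (SE). The median over all genes tested was 0.02.

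Genes for 3′ end cutting and decay of nuclear RNA, among them the subunits of RNase P, comprised 19 genes, 8 higher and 11 lower, with a median of -0.11 and 0 called. Pop5, a subunit of RNase P, had 151 ± 64.3 CPM in naïve and 93.0 ± 23.1 CPM in withdrawn mice (SD) and a log2 fold change of -0.70 ± 0.27 (SE) (edgeR adjusted p = 0.521). Rpp30, another subunit, had -0.50 ± 0.28, Mettl16, an RNA methyltransferase that binds Malat1, 0.40 ± 0.25, and Elac2, the enzyme that trims tRNA 3′ ends, 0.50 ± 0.33 (SE).

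Miat, a nuclear RNA that binds splicing factors, lies at chr5:112213228-112229395. Over the naïve mice its CPM had a lowest, median and highest value of 93.2, 129 and 169, and it was 112, 134, 142, 103 and 137 in withdrawn mice 1 to 5. All withdrawn values lay inside the naïve range, and the log2 fold change was -0.06 ± 0.18 (SE) (edgeR adjusted p = 0.973). Of its exonic bases, 30.4% are shared with other genes, most of them with Gm26953 on the opposite strand, and whether counting used strand is not given in the sources used here. Reads of both cannot be told apart without strand, although Gm26953 held means of 1.09 and 0.858 CPM. The splicing factors known to bind Miat were Sf1 (-0.23 ± 0.17), Celf3 (-0.15 ± 0.19), Qk (-0.05 ± 0.28) and Srsf1 (above), 0 of 4 called (log2 fold change ± SE).

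Meg3, a maternally expressed transcript, lies at chr12:109541001-109571726 on the plus strand. Its CPM had a lowest, median and highest value of 1378, 2374 and 2733 in naïve mice, and was 1622, 2054, 1985, 1624 and 1933 in withdrawn mice 1 to 5. The lowest value of all belonged to naïve mouse 5, and all 5 withdrawn mice lay below the naïve median. The log2 fold change was -0.29 ± 0.18 (SE) (edgeR adjusted p = 0.807), and limma voom with sample weights gave -0.42 (adjusted p = 0.187). Meg3 therefore did not pass the threshold by either tool.

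Rian, which hosts small nucleolar RNAs, begins 32213 bases beyond Meg3, and 13 genes of that class lie within it. Its CPM had a lowest, median and highest value of 55.7, 76.1 and 92.9 in naïve mice, and was 65.0, 70.7, 63.4, 62.3 and 62.8 in withdrawn mice. The withdrawn mice spanned a narrow range inside the naïve one, with a coefficient of variation of 5.29% against 18.3%. The log2 fold change was -0.23 ± 0.17 (SE) (edgeR adjusted p = 0.850).

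Mirg, a host of microRNAs with 14 such genes within it, begins 68047 bases beyond Rian. Naïve mice gave a lowest, median and highest CPM of 6.70, 12.4 and 28.0, and Mirg stood at 14.6, 6.60, 15.4, 12.3 and 11.2 in withdrawn mice. Naïve mice 1 and 3 stood above all others, and the log2 fold change was -0.42 ± 0.44 (SE) (edgeR adjusted p = 0.905).

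The 3 maternally expressed RNAs did not all vary together among mice. The log2 ratio of Rian to Meg3 was -4.86 ± 0.32 in naïve and -4.81 ± 0.14 in withdrawn mice (SD), a difference of 0.05 (exact permutation p = 0.797, adjusted p = 0.968). The log2 ratio of Mirg to Meg3 was -7.23 ± 0.78 and -7.25 ± 0.56 (SD), a difference of -0.02 (exact permutation p = 0.968, adjusted p = 0.968). Across the 11 mice, which share depth and library effects, Pearson's r of log2 CPM was 0.62 for Meg3 and Rian, 0.23 for Meg3 and Mirg and -0.07 for Rian and Mirg. The paternally expressed partners of the locus had means of 2.53 and 2.75 CPM for Dlk1, a Notch ligand relative, 7.31 and 8.23 CPM for Rtl1, a retrotransposon-like gene, and 9.82 and 8.52 CPM for Dio3, the deiodinase that inactivates thyroid hormone. None of the 6 locus genes was called.

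**Figure D3:**
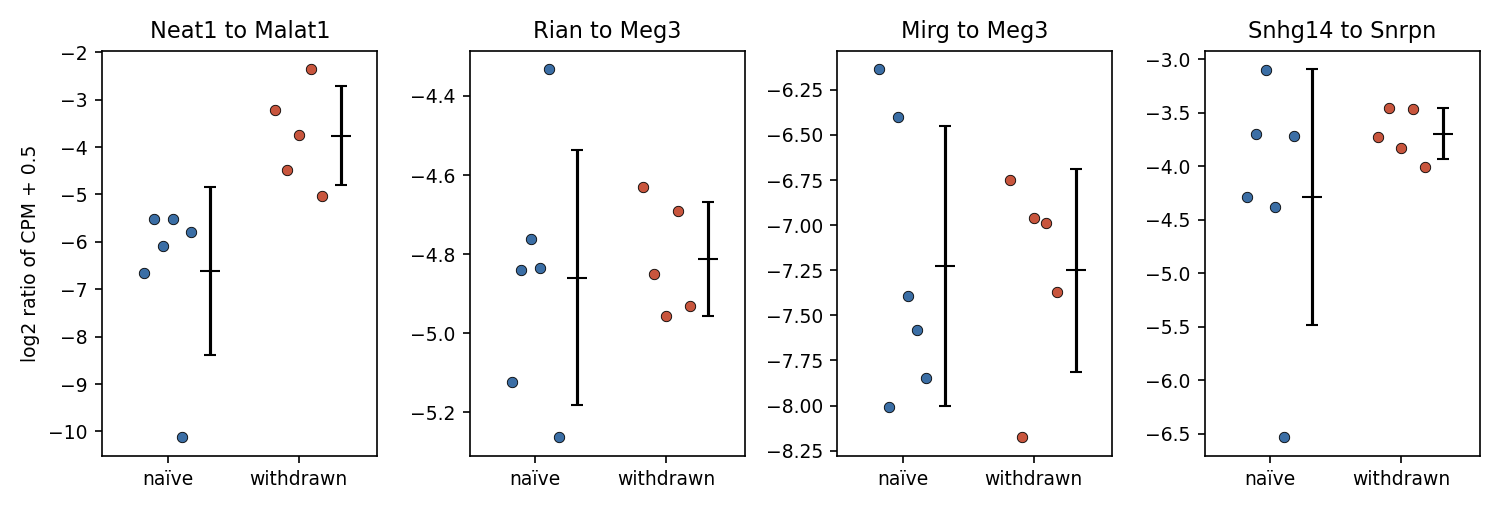
The log2 ratio of CPM + 0.5 within each mouse (points) for 4 pairs of genes, with the group mean ± SD (bar), in naïve (blue) and withdrawn (red) mice. The Neat1 to Malat1 ratio separates the groups, with a lowest value of -10.12 in naïve mouse 5, and the other 3 ratios overlap.

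Snhg14, a long host transcript of 208 small nucleolar RNA genes that reaches into Ube3a from the opposite strand, lies at chr7:59307924-59975759. Its CPM had a lowest, median and highest value of 12.9, 56.0 and 85.4 in naïve mice, and was 44.0, 57.0, 46.2, 47.0 and 47.9 in withdrawn mice. The lowest value was that of naïve mouse 5, and the coefficient of variation was 47.3% in naïve against 10.3% in withdrawn mice. The log2 fold change was -0.08 ± 0.34 (SE) (edgeR adjusted p = 0.984). Of its exonic bases, 1803 lie opposite Ube3a exons, where reads of both genes cannot be told apart without strand. Ube3a, the ubiquitin ligase whose paternal copy the antisense transcript silences in neurons, had 187 ± 42.9 and 180 ± 35.0 CPM (SD), a log2 fold change of -0.05 ± 0.19 (SE).

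Snrpn, a spliceosome protein gene that starts the same paternal unit, had 896 ± 212 CPM in naïve and 636 ± 94.4 CPM in withdrawn mice (SD), a log2 fold change of -0.49 ± 0.17 (SE) (edgeR adjusted p = 0.464). The ratio of Snhg14 to Snrpn was -4.29 ± 1.19 and -3.70 ± 0.24 on the log2 scale (SD), a difference of 0.59 (exact permutation p = 0.377, adjusted p = 0.753) that was 0.14 without naïve mouse 5. Of the 7 genes listed for this locus 5 were tested, all 5 with negative log2 fold changes and 0 called. Ndn, a growth suppressor of the MAGE family, had means of 408 and 352 CPM, and Magel2, of the same family, 4.88 and 2.49 CPM.

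Snhg11, at chr2:158375638-158386145, had the highest level of the members. The lowest, median and highest CPM was 2266, 3468 and 3607 in naïve mice, and Snhg11 stood at 2598, 3003, 2403, 2410 and 3309 in withdrawn mice. All 5 withdrawn mice lay below the naïve median, while naïve mouse 1 was the lowest of all. The log2 fold change was -0.24 ± 0.16 (SE) (edgeR adjusted p = 0.820). Among the small nucleolar RNA host genes, 17 of 20 listed symbols were matched and 15 tested, 7 higher and 8 lower, with a median of -0.03 and 0 called. Besides Snhg11, the smallest p belonged to Snhg15 (1.00 ± 0.53), Snhg1 (-0.62 ± 0.52) and Snhg9 (0.81 ± 0.72) (log2 fold change ± SE).

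Other long noncoding RNAs known from neurons gave a similar count. Of 19 listed 16 were matched and 15 tested, 9 higher and 6 lower, with a median log2 fold change of 0.11 and 0 called. Dlx6os1, which lies at the interneuron genes Dlx5 and Dlx6, had 5.08 ± 5.82 CPM in naïve and 27.3 ± 32.9 CPM in withdrawn mice (SD), a log2 fold change of 2.43 ± 0.90 (SE) (edgeR adjusted p = 0.495). Ftx, a noncoding gene near the X inactivation centre, had -0.33 ± 0.24, Sox2ot 0.92 ± 0.85 and Firre 0.34 ± 0.35 (SE). Over all 1510 tested genes of long noncoding RNA biotypes the median log2 fold change was 0.18, 897 were higher and 613 lower, 0 were called by edgeR, and Neat1 ranked 2 by p among them.

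**Figure D4:**
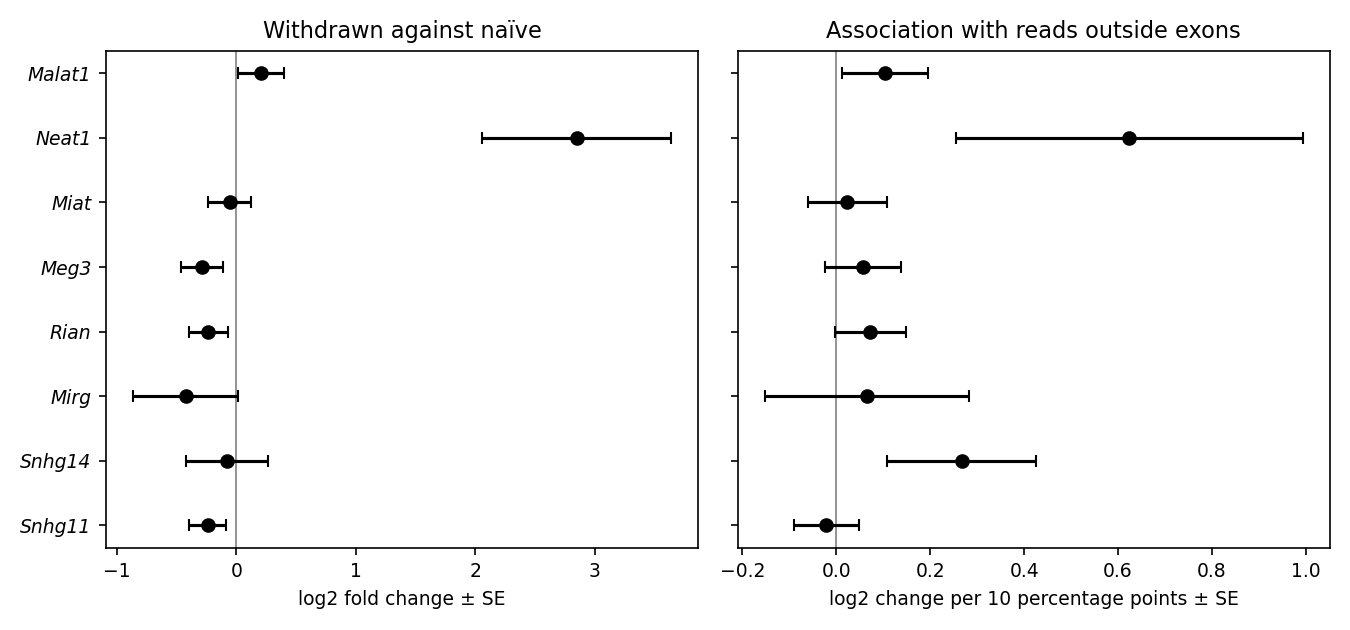
Points give the edgeR estimate for each member and bars its standard error. The left panel shows the log2 fold change of withdrawn against naïve mice and the right panel the log2 change per 10 percentage points of reads outside exons. Neat1 (2.85) stands apart on the left, and on the right its estimate (0.62) has the widest bar.

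Reads outside annotated exons bear on these genes because such reads include introns of unspliced RNA and unannotated transcripts, and several members are nuclear. Their share of the tallied reads was 18.5%, 26.2%, 31.5%, 21.2%, 5.77% and 17.9% in naïve mice 1 to 6. In withdrawn mice 1 to 5 it was 26.2%, 39.6%, 13.3%, 48.1% and 16.0%. The means of 20.2% ± 8.73 and 28.6% ± 14.99 (SD) overlapped (exact permutation p = 0.266, adjusted p over 6 library measures = 0.556). Naïve mouse 5, with the lowest share, also had the fewest genes detected (15585) and the lowest level of 4 of the 8 members.

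With the group in the model, edgeR found 0 members and 0 genes associated with this share at an adjusted p of at most 0.05. At an unadjusted p under 0.05 there were 0 members, against 10.7% of all genes. The estimates, as log2 change per 10 percentage points, were positive for 7 of 8 members, with a median of 0.07 beside 0.05 over all genes. The largest belonged to Neat1 (0.62 ± 0.37 (SE), adjusted p = 0.580) and Snhg14 (0.27 ± 0.16 (SE), adjusted p = 0.581), both by edgeR. Without naïve mouse 5 they were 0.39 for Neat1 and 0.098 for Snhg14, and without the 3 mice with a conflicting label 0.67 and 0.77, with edgeR adjusted p of 0.813 and 0.371. Malat1 had 0.10 ± 0.09, Rian 0.07 ± 0.08, Mirg 0.06 ± 0.22, Meg3 0.06 ± 0.08, Miat 0.02 ± 0.08 and Snhg11 -0.02 ± 0.07 (SE). With the share as a covariate, the log2 fold change of Neat1 was 2.36 ± 0.75 (SE) (edgeR adjusted p = 0.547).

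**Figure D5:**
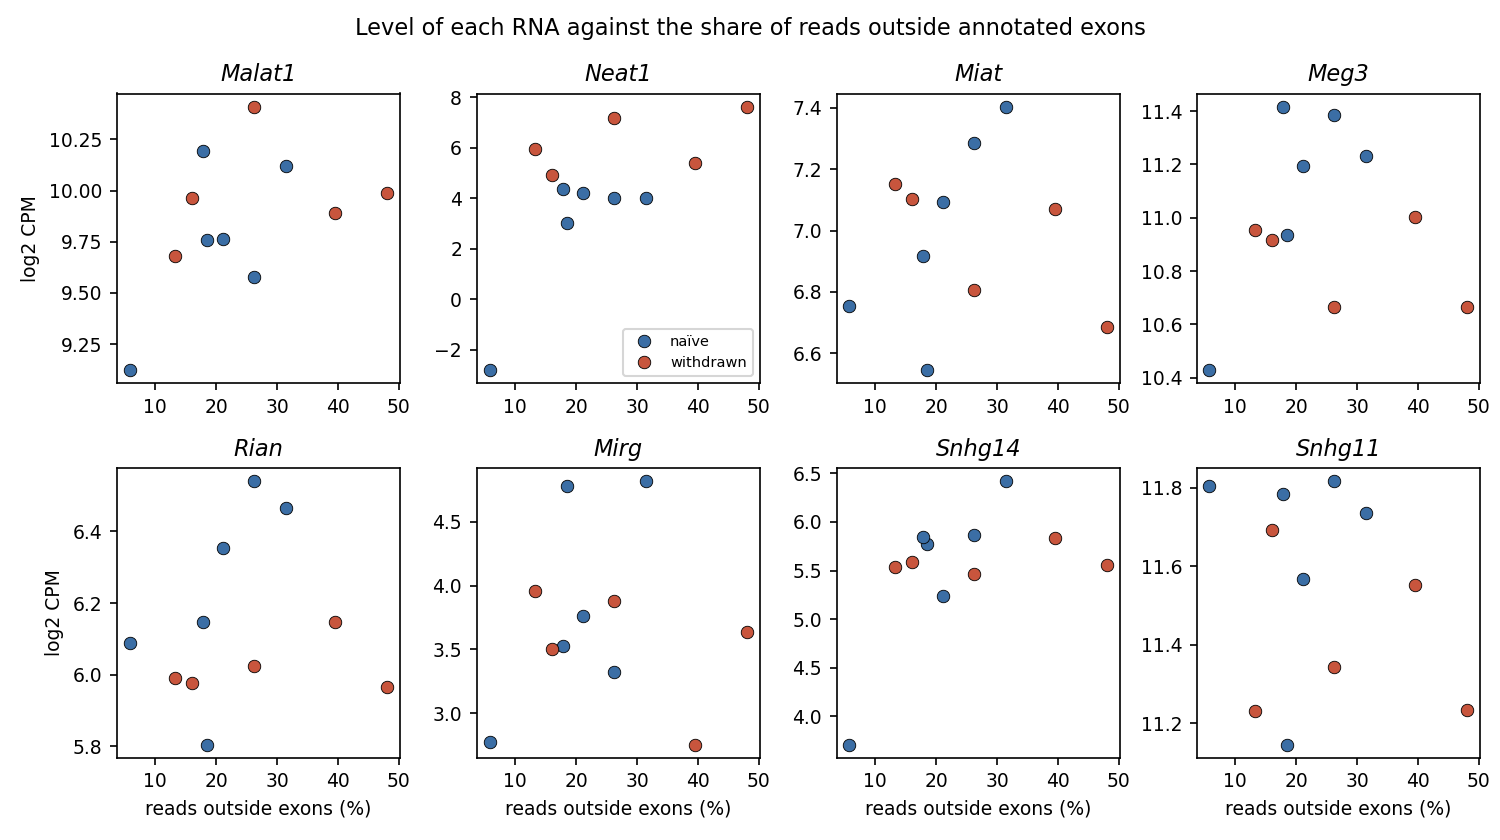
Each panel plots log2 CPM of a member in each mouse against the percentage of tallied reads outside annotated exons, in blue for naïve and red for withdrawn mice. Naïve mouse 5 lies at the far left (5.77%) and is lowest for Malat1, Neat1, Meg3 and Snhg14.

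The genes whose pattern over the 11 mice was most like each member, by Pearson's r of log2 CPM among 10208 genes with a mean of at least 10 CPM, are given as a description. For Neat1 they were Tns2 (r = 0.98), a focal adhesion protein, and Irgm1 (0.98), an interferon-induced GTPase, with log2 fold changes of 2.21 ± 0.80 and 1.19 ± 0.51 (SE) and edgeR adjusted p of 0.479 and 0.648. For Meg3 they were Nos1ap (0.97) and Gria3 (0.95), an AMPA receptor subunit, and for Miat Reep1 (0.95) and Strbp (0.95). Malat1 was most like Atp13a3 and Phf3 (0.93 each), Rian like Map3k12 and Zmynd8 (0.85 each), Mirg like Mrpl9 (0.92) and Chd6 (0.90), Snhg11 like Mat2a and Col19a1 (0.87 each), and Snhg14 like Zfp128 and Osbpl6 (0.95 each). No member was among the genes most like another member. Naïve mouse 5 lay far below the other mice for Neat1 (log2 CPM -2.80, from a count of 0). It was also lowest for Snhg14 (log2 CPM 3.71), and r was not computed without that mouse.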

How the data were processed

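RNA from mPFC CRF1+ neurons, 160 pg for each mouse, was amplified with the SMARTseq HT kit and sequenced in single 75 base reads. The authors trimmed adapters (cutadapt), mapped with STAR to GRCm38 (Ensembl release 91) and counted reads per gene with HTSeq. The deposited values are these raw counts, 1 file for each of 6 naïve and 5 withdrawn mice, which also tally reads outside annotated exons. Gene names, positions and transcript sequences came from GENCODE on GRCm38, where 53360 of 53465 genes have a symbol. The members and gene lists were chosen with earlier results of these data known.

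Groups followed title and treatment, although the design text of the series reverses the group sizes. The main test was edgeR 4.0.16 (R 4.3.3) with TMM, filterByExpr (minimum count 10, total 15), the quasi-likelihood test and Benjamini-Hochberg adjustment; SE is the size of the log2 fold change over the square root of F. The same test gave the slope on the share of reads outside exons, beside the group. Log2 CPM used a prior count of 2. DESeq2 1.42.0 and limma 3.58.1 voom were alternatives, besides other library sizes, no filter, the share as covariate, a replicate block, fits without the 3 mice with conflicting labels and without each mouse (for DESeq2, these last fits were added after seeing the data). Ratios and library measures had two-sided exact permutation tests over 462 splits. The scripts were tested on simulated data. No pair of libraries was a duplicate (chi-square per degree of freedom at least 25.6 over 55 pairs).

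Genes named were the members, the 2 genes most like each, partners in both imprinted loci, up to 4 genes with the smallest p in each list with 0 called, identity genes and the leading marker of each other cell type, except that of microglia, which is not reported here. Gene counts per mouse ranged from 7351567 to 22244869.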

Additional observations from a re-analysis of the deposited data

Results flagged for a closer look

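Among 28 sets of values (14 measures in each group), 4 held a mouse whose gap to its nearest neighbour was large for the range of its group, where chance gives about 1 in 20 sets, or 1.4. In 3 of these 4 the mouse was naïve mouse 5, which also had the lowest share of reads outside exons and the lowest fibroblast sum. Its log2 CPM of Neat1 was -2.80, which with a count of 0 reflects the prior count. Its log2 ratio of Neat1 to Malat1 was -10.12, and its log2 ratio of Snhg14 to Snrpn was -6.53. The first of these ratios rests on the same count of 0, so the sets are not independent and 4 against 1.4 is no test. The remaining flagged mouse was naïve mouse 1, with a log2 CPM of 11.15 for Snhg11, lower than the other naïve mice.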

How the results depend on the processing

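The members' log2 fold changes kept their direction and their side of the threshold in 147 of 152 combinations of member and setting, and Neat1 ranged from 2.24 to 3.39 over its 19 settings, with adjusted p from 0.0393 to 0.756. Neat1 was called in 1 setting, DESeq2's Wald test, which called 1 member and 362 genes. In fits chosen after seeing the data, DESeq2 called 0 members and 168 genes without the 3 mice of conflicting label, and 0 to 1 members and 150 to 540 genes without each mouse in turn (150 without withdrawn mouse 1, 157 without withdrawn mouse 4). Neat1 was then called in 4 of 11 fits, those without naïve mouse 5 or 6 or withdrawn mouse 2 or 5, at log2 fold changes of 2.43 to 3.14. The number of genes called was 1 in the main edgeR fit, 137 without the low-count filter and 0 with all tallied reads as library size, with the covariate for reads outside exons, on leaving out the 3 mice of conflicting label and with the replicate block. Leaving out each mouse in turn gave 0 to 193 genes, the 193 without withdrawn mouse 2. Same-numbered mice are different animals and did not deviate together (correlations from -0.20 to 0.18). With the replicate block, Snhg14 turned to 0.17. With all tallied reads as library size, 1567 genes were associated with the share of reads outside exons (1454 of them negatively). The slopes of Malat1 (-0.069), Meg3 (-0.11), Miat (-0.15), Rian (-0.10) and Mirg (-0.10) turned negative. That library size includes the reads outside exons, so on average CPM falls by construction as their share rises. The slope of Miat was -0.026 without the filter, and that of Snhg11 was 0.0090 without the 3 mice with conflicting labels. Leaving out single mice moved the log2 fold change of Miat between -0.13 and 0.035 and of Snhg14 between -0.27 and 0.14. It moved the slopes of Meg3 between -0.031 and 0.14, of Miat between -0.019 and 0.10, of Mirg between -0.073 and 0.15, of Snhg11 between -0.078 and 0.017, of Neat1 between 0.39 and 0.79 and of Snhg14 between 0.098 and 0.44. The log2 ratio of Rian to Meg3 ranged from -0.034 to 0.15 and that of Mirg to Meg3 from -0.18 to 0.21, and that of Snhg14 to Snrpn from 0.14 to 0.83. The Neat1 to Malat1 difference of 2.77 without the 3 mice had an exact permutation p of 0.107.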
